A study of Arabidopsis thaliana with 8 samples.

Results

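The rbcL locus of the Arabidopsis thaliana plastid genome was described through its Hi-C contacts, that is, pairs of DNA ends joined by ligation and counted by sequencing. The locus was taken by position, as the 1-kb bins with index 54 to 56 (the start position divided by 1000) on the TAIR10 plastid chromosome, and every bin pair with at least 1 of these 3 bins was used. This gave 462 of the 12090 bin pairs of the map. The bin from 54001 to 55000 holds the 5′ end of atpB, the spacer between atpB and rbcL and the first bases of rbcL, and is called the spacer bin. The bin from 55001 to 56000 lies wholly inside rbcL and is called the body bin. The bin from 56001 to 57000 holds the 3′ part of rbcL and part of the gap before accD, and is called the 3′ bin. Genes were placed in bins by their positions in RefSeq's annotation of TAIR10.1, while the contact table is on TAIR10.

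All 8 libraries came from chloroplast membranes of rosette leaves of 14 day old wild-type plants of the ecotype Col0. The 4 crosslinked libraries carry the label of treatment with EGS, an amine-reactive crosslinker (5 mM for 45 min), and formaldehyde (4% for 4 h), and the 4 non-crosslinked libraries are the negative controls. The labels describe crosslinking in the protocol of every sample, and only the title and the treatment field tell the groups apart. Each preparation started from 5 g of leaves, so every library is a pool of leaf tissue. Nothing in the labels says that replicates came from separate plants, so the p-values below measure the spread between these libraries, which may be technical.

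The gene rbcL encodes the large subunit of Rubisco, the enzyme that fixes CO2, and its transcript is among the abundant mRNAs of leaf chloroplasts. It is transcribed away from atpB, which encodes the beta subunit of the chloroplast ATP synthase, so the promoters of both genes lie in the spacer between them. Downstream of rbcL lies accD, which encodes a subunit of acetyl-CoA carboxylase, and plastid DNA is packed in nucleoids that are attached to membranes.

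Crosslinked replicates 1 to 4 held 14063, 13629, 9282 and 8885 contacts with an rbcL bin, out of 543800, 520907, 368149 and 351828 in all. Non-crosslinked replicates 1 to 4 held 18725, 14863, 8974 and 10957, out of 708524, 618672, 357017 and 408539. The share of the locus in all contacts ran from 2.52% to 2.62% with crosslinking and from 2.40% to 2.68% without it, and these ranges overlap.

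The libraries differed much more in how many rbcL contacts were long-range, meaning over 5 kb apart when the images of a bin in the 2 copies of the inverted repeat are treated as the same place. Long-range contacts of the locus numbered 2143, 1221, 678 and 474 in crosslinked replicates 1 to 4, which is 15.2%, 8.96%, 7.30% and 5.33% of its contacts. They numbered 2523, 1607, 127 and 243 in non-crosslinked replicates 1 to 4, or 13.5%, 10.8%, 1.42% and 2.22%. Wilson 95% intervals, which cover counting error only, ran from 4.89% to 5.82% in crosslinked replicate 4 and from 1.19% to 1.68% in non-crosslinked replicate 3. Non-crosslinked replicates 3 and 4 thus stood apart from the other libraries with few long-range contacts. Of the 432 rbcL pairs over 5 kb, 334 and 275 had no contact there, against 6 in each replicate 1. This was not particular to rbcL. Over the whole map, contacts over 5 kb numbered 50724, 32487, 2655 and 4237 in non-crosslinked replicates 1 to 4. They numbered 53468, 29318, 17671 and 11014 in crosslinked replicates 1 to 4. The main long-range values are therefore also given for replicates 1 and 2 alone.

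Long-range contacts of the 3 rbcL bins moved in opposite directions. The body bin, inside the gene, had more of them in crosslinked libraries, and both flanking bins had fewer. Contacts were scaled by edgeR's TMM method over the long-range totals of all bins and given as CPM, the count of a bin per 1e6 such counts in its library, so each value is relative to the other bins of the same library.

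In the body bin, crosslinked replicates 1 to 4 had 8085, 7718, 7959 and 8995 CPM of long-range contacts, and non-crosslinked replicates 1 to 4 had 6792, 6179, 4680 and 4949 CPM. Every crosslinked library lay above every non-crosslinked one. The log2 fold change was 0.40 ± 0.11 (SE, edgeR adjusted p = 0.00276), a 1.32-fold difference. Adjusted p-values are Benjamini-Hochberg values over all bins or pairs tested, with a threshold of 0.05. In replicates 1 and 2 alone it was 0.27 (adjusted p = 0.0238).

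In the spacer bin, which carries the promoters of atpB and rbcL, crosslinked replicates 1 to 4 had 5127, 6246, 4975 and 5660 CPM. Non-crosslinked replicates 1 to 4 had 9920, 10282, 10173 and 12991 CPM, with no overlap between the groups. The spacer bin fell by 0.94 ± 0.11 on the log2 scale (SE, edgeR adjusted p = 1.35e-06), to 5502 ± 577 CPM in crosslinked libraries, against 10842 ± 1441 in non-crosslinked ones (SD, n = 4 each).

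The 3′ bin had 5997, 6001, 5297 and 6143 CPM in crosslinked replicates 1 to 4, against 8749, 8804, 10987 and 12125 CPM in non-crosslinked replicates 1 to 4. The groups again did not overlap, and the log2 fold change was -0.70 ± 0.11 (SE, edgeR adjusted p = 3.05e-05). Lack of overlap was not particular to rbcL, since most other bins within 15 kb of the body bin showed it too. Its share over all bins is not given here. In replicates 1 and 2 alone the log2 fold change was -0.85 in the spacer bin (adjusted p = 0.00251) and -0.55 in the 3′ bin (adjusted p = 0.00123). Changes of this kind were common on the map: 32.3% of all bins were higher and 34.8% were lower in crosslinked libraries, and the median over all bins was 0.05.

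**Figure D1:**
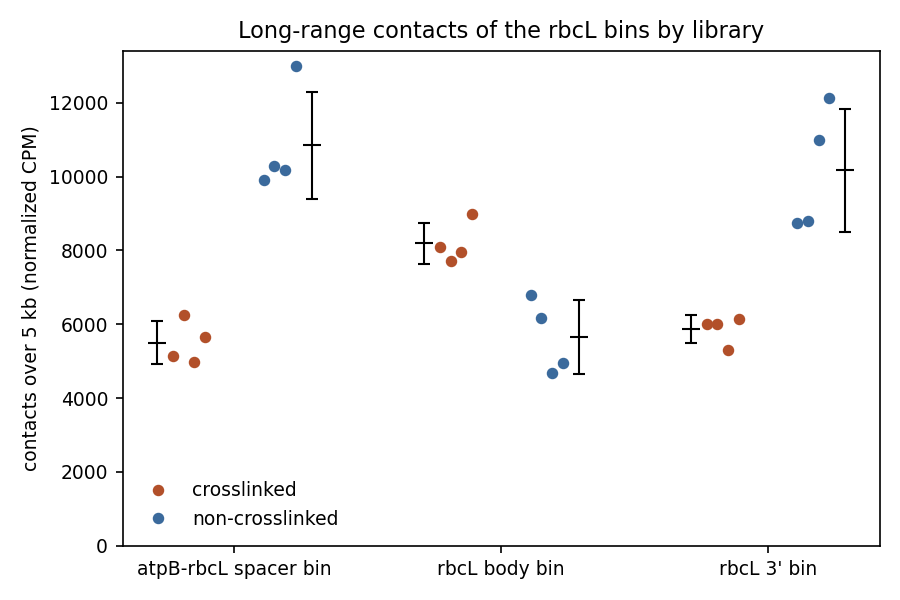
Long-range contacts (over 5 kb) of the 3 rbcL bins in each library, in TMM-normalized CPM of the long-range totals of all bins. Points are libraries, crosslinked at the left and non-crosslinked at the right of each bin, and bars show the mean and SD of 4 libraries. The crosslinked body bin lies between 7718 and 8995 CPM, above its non-crosslinked values, while the crosslinked spacer and 3′ bins lie below theirs.

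The order of the 3 bins thus differed between the groups. Ranked by mean long-range CPM among the 84 bins of the large single copy region, the body bin was 13th from the top in crosslinked libraries and 67th in non-crosslinked ones. The spacer bin was 65th and 9th in the same 2 groups, and the 3′ bin was 60th and 17th. As a share of each bin's own contacts, same-bin contacts included, long-range contacts made up 13.5% ± 5.90 of the body bin in crosslinked libraries and 6.996% ± 6.58 in non-crosslinked ones (SD, n = 4 each). That difference, 6.498 percentage points, did not exceed the spread of the libraries (exact permutation test, two-sided p = 0.229, adjusted over 3 bins 0.686). The spacer bin had 5.75% ± 2.70 and 6.14% ± 5.27, and the 3′ bin had 7.52% ± 3.74 and 6.51% ± 5.43, in crosslinked and non-crosslinked libraries. The decreases of the flanking bins are therefore relative to the other bins, and no decrease in their own share of long-range contacts was detected.

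The contrast within the locus was also computed per library, as log2 long-range contacts of the body bin minus the mean of the spacer and 3′ bins, which needs no scaling between libraries. It was 0.54, 0.33, 0.63 and 0.61 in crosslinked replicates 1 to 4. It was -0.46, -0.62, -1.18 and -1.34 in non-crosslinked replicates 1 to 4. All crosslinked values were above 0 and all non-crosslinked values below it. The mean difference was 1.43. It is given as a description with no test, because it restates the long-range totals of the 3 bins, whose groups already did not overlap. It was 0.98 among replicates 1 and 2 and 1.88 among replicates 3 and 4. Of 79 other bins of the large single copy region set against their neighbours in the same way, 31.6% had an unadjusted exact p under 0.05 in the same direction and 30.4% in the other. Their differences ran from -2.43 to 1.81 with a median of -0.01, and 1 of the 79 exceeded that of the rbcL body.

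Bins around rbcL also differed in direction from one bin to the next. Of the 18 bins within 10 kb of the locus on either side, 7 were higher and 6 lower in long-range contacts (edgeR adjusted p under 0.05), which are shares close to those over all bins. On the upstream side, the bin of atpE and atpB (52001 to 53000) averaged 9391 CPM in crosslinked libraries and 4971 in non-crosslinked ones (log2 0.80). The trnV bin (51001 to 52000), which carries a valine tRNA gene, averaged 11405 and 6082 CPM in these groups (0.92). Next to it, the bin of ndhC, a subunit gene of the NADH dehydrogenase-like complex, averaged 6285 and 13437 CPM (-1.04). The atpB bin beside the spacer did not pass the threshold (0.26, adjusted p = 0.0592). Downstream, the first accD bin (57001 to 58000) had a log2 fold change of -0.05 (adjusted p = 0.671) and the next one of -0.68. The bin of petL and petG (65001 to 66000), which encode small subunits of the cytochrome b6f complex, had 3939 CPM in crosslinked libraries and 17137 in non-crosslinked ones (-1.99).

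**Figure D2:**
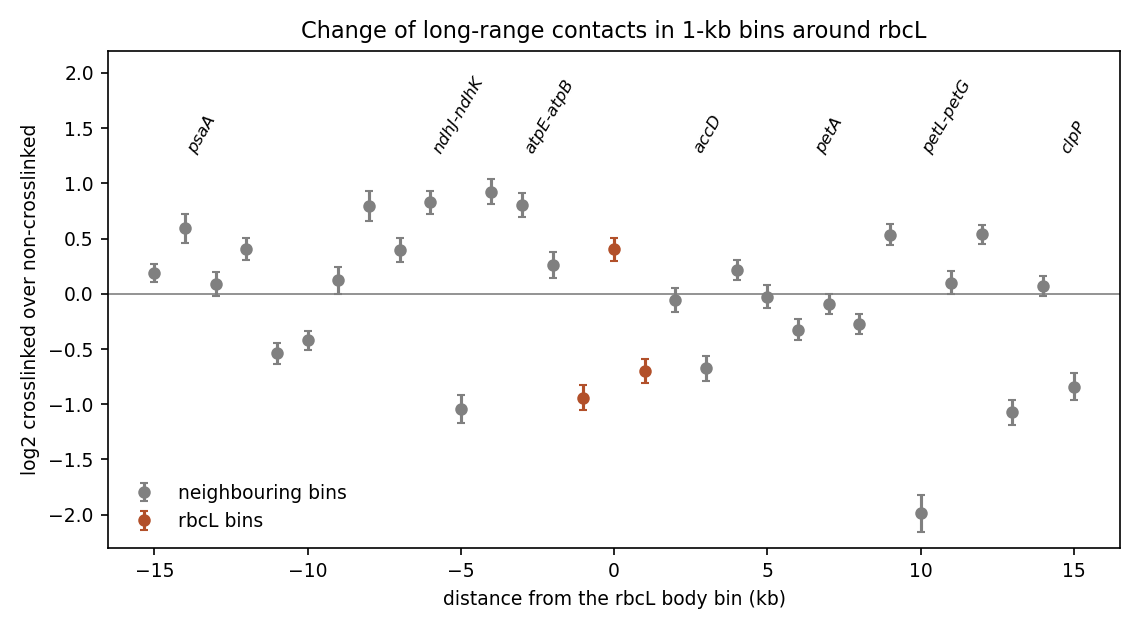
Log2 fold change (crosslinked over non-crosslinked) of the long-range contacts of each 1-kb bin, against its distance in kb from the rbcL body bin. Points are bins, with rbcL bins in colour and neighbouring bins in grey, and bars are standard errors from edgeR. The spacer bin at -0.94, the body bin at 0.40 and the 3′ bin at -0.70 lie among neighbours of both signs.

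Split by the region of the partner, the decrease of the flanking bins was present for partners in both single copy regions. With the small single copy region, the part of the plastid genome between the repeat copies that holds most NDH genes, the spacer bin had 64, 45, 23 and 19 long-range contacts in crosslinked replicates 1 to 4. It had 183, 109, 10 and 30 in non-crosslinked replicates 1 to 4. The raw counts overlap, but after scaling the crosslinked libraries lay between 586 and 833 CPM and the non-crosslinked ones between 1691 and 3708, without overlap. The spacer bin fell by 1.52 ± 0.22 on the log2 scale for these partners (SE, edgeR adjusted p = 1.11e-06), and the 3′ bin fell by 1.37 ± 0.22 (adjusted p = 5.57e-06). Over all bins and partner regions 31.2% of such totals were higher and 31.8% lower, and with small single copy partners 7.74% of bins were higher and 49.7% lower. The body bin was at -0.06 there (adjusted p = 0.820), with 836 ± 198 CPM in crosslinked and 746 ± 228 CPM in non-crosslinked libraries (SD, n = 4 each). In replicates 1 and 2 alone the spacer bin was at -1.41 with these partners, the 3′ bin at -1.09 and the body bin at -0.14.

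With partners in the large single copy region, to which rbcL belongs, the body bin rose by 0.48 ± 0.12 (SE, edgeR adjusted p = 0.000957), while the spacer bin fell by 0.89 ± 0.12 and the 3′ bin by 0.55 ± 0.12. Replicates 1 and 2 alone gave 0.36 in the body bin, -0.78 in the spacer bin and -0.47 in the 3′ bin. The backgrounds over all bins were 29.7% higher and 34.2% lower. With the inverted repeat, which holds the rRNA operon and ycf2, the body bin rose by 0.46 ± 0.13 (adjusted p = 0.00432) and the spacer bin fell by 0.49 ± 0.14 (adjusted p = 0.00325). The 3′ bin was at -0.31 (adjusted p = 0.0780). Among all bins, 56.1% were higher and 11.6% lower with repeat partners, so the rise of the body bin there is of the common direction and the decrease of the spacer bin of the less common one. Replicates 1 and 2 alone gave 0.43 in the body bin and -0.51 in the spacer bin. In replicates 3 and 4 alone neither repeat result passed the threshold (0.78, adjusted p = 0.0620 for the body bin and -0.33, adjusted p = 0.470 for the spacer bin). Each contact is counted in both of its bins in these totals, so the bins are not independent of each other.

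Within the large single copy region the difference also changed with distance. The body bin had 108, 88, 55 and 28 contacts with partners 2 to 5 kb away in crosslinked replicates 1 to 4, against 45, 30, 2 and 3 in non-crosslinked replicates 1 to 4. After scaling, all crosslinked libraries (2571 to 3585 CPM) lay above all non-crosslinked ones (922 to 1202 CPM). The body bin rose by 1.33 ± 0.20 at this distance (SE, edgeR adjusted p = 1.70e-10) and by 0.69 ± 0.14 at 6 to 20 kb (adjusted p = 2.19e-06). At 21 to 50 kb it was at 0.07 (adjusted p = 0.686) and at 51 to 83 kb at 0.33 (adjusted p = 0.333). At 6 to 20 kb it was at 0.56 in replicates 1 and 2 alone.

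The spacer bin did not pass the threshold at 2 to 5 kb (0.22, adjusted p = 0.355). It fell by 0.62 ± 0.13 at 6 to 20 kb and by 1.17 ± 0.13 at 21 to 50 kb. At 21 to 50 kb it had 151, 109, 41 and 36 contacts in crosslinked replicates 1 to 4, against 315, 200, 24 and 27 in non-crosslinked replicates 1 to 4. Its decrease of 0.85 at 51 to 83 kb rested on few contacts (at most 33 in a library) and missed the threshold with DESeq2 (-1.02, adjusted p = 0.0692). The 3′ bin was at 0.43 at 2 to 5 kb (adjusted p = 0.0649), and passed there without TMM (0.49, adjusted p = 0.0341) and with a replicate block (0.43, adjusted p = 0.0492). At 6 to 20 kb it was at -0.29 (adjusted p = 0.0497), a call that was lost in each of the 5 alternatives run, with adjusted p of 0.130 (no TMM) to 0.307 (replicates 3 and 4). It fell by 0.90 ± 0.13 at 21 to 50 kb. The values at 21 to 50 kb in replicates 1 and 2 alone were -1.08 in the spacer bin and -0.82 in the 3′ bin. All 3 bins thus had their highest log2 value at 2 to 5 kb and a lower one at 21 to 50 kb. The map as a whole moved the same way. Over all bins of the region and all distances 31.7% of such totals were higher and 31.1% lower. By distance, 69% were higher and 4.76% lower at 2 to 5 kb, 29.8% and 27.4% at 6 to 20 kb, and 17.9% and 42.9% at 21 to 50 kb. At 51 to 83 kb, 1.67% of 60 bins were higher and 56.7% lower.

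**Figure D3:**
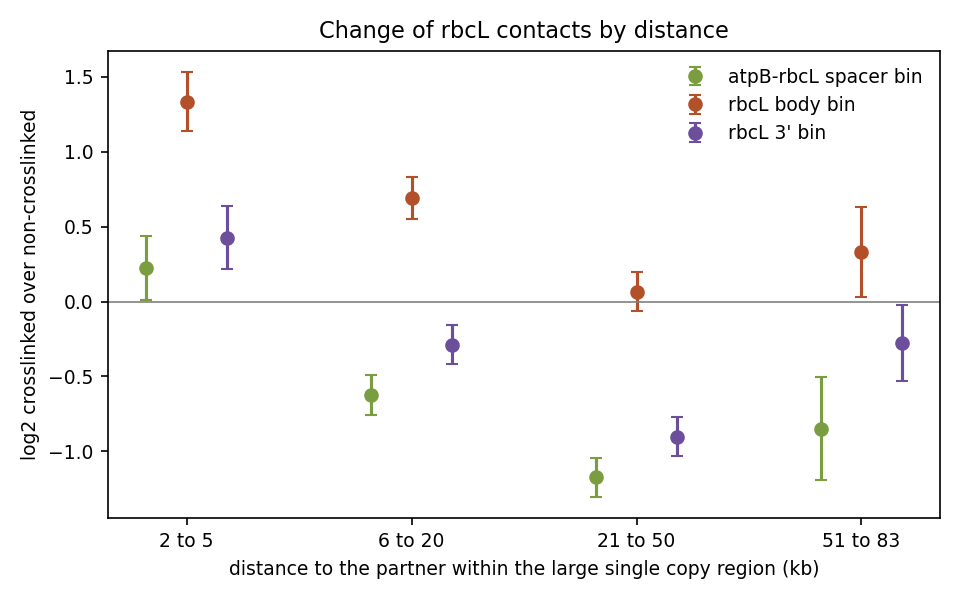
Log2 fold change (crosslinked over non-crosslinked) of the contacts of the 3 rbcL bins with partners in the large single copy region, by distance class in kb. Points are bins and bars are standard errors from edgeR. All 3 bins are highest at 2 to 5 kb, and the spacer and 3′ bins are below 0 from 6 kb on.

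The fall of contacts with distance was summarised per library for the whole locus, as contacts per pair at 2 to 5 kb over contacts per pair at 20 to 50 kb. This ratio was 2.32, 2.54, 3.19 and 2.18 in crosslinked replicates 1 to 4, against 0.943, 0.894, 0.478 and 0.768 in non-crosslinked replicates 1 to 4. In crosslinked libraries near pairs thus had more contacts than distant ones, and in non-crosslinked libraries they had fewer. The mean was 2.56 ± 0.448 with crosslinking, against 0.771 ± 0.208 without it (SD, n = 4 each), so the difference was 1.79 (exact permutation test, two-sided p = 0.0286, the same after adjustment over 2 measures). The difference was 1.51 among replicates 1 and 2 and 2.06 among replicates 3 and 4. With any 1 crosslinked library left out the adjusted exact permutation p was 0.0571. That value is adjusted together with the upstream share below, so it also depends on that measure. The ratio was higher with an unadjusted exact p under 0.05 in 78.3% of 23 other 3-kb windows of the region, so this is a property that rbcL shares with most of them.

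Contacts of the locus with its nearest 5 kb on either side were more evenly split in crosslinked libraries. The share on the upstream side, towards atpB, was 48.7%, 46.6%, 47.0% and 47.4% in crosslinked replicates 1 to 4. It was 42.7%, 43.7%, 35.3% and 39.5% in non-crosslinked replicates 1 to 4, without overlap. The difference was 7.11 percentage points (exact permutation test, two-sided p = 0.0286, the same after adjustment over 2 measures). With any 1 crosslinked library left out the adjusted p by this test was 0.0571, and without adjacent bins the difference was 2.58 points (adjusted p = 0.600). Among the other windows, 30.4% were higher and 26.1% lower on this measure.

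Most contacts of the locus were very short. Contacts within one bin made up 56.6% ± 4.48 of the rbcL contacts in crosslinked libraries and 64.1% ± 6.04 in non-crosslinked ones, and adjacent bins 33.0% ± 1.57 and 28.6% ± 2.75 (SD, n = 4 each). Partners 2 to 5 kb away took 1.21% ± 0.472 and 0.396% ± 0.367, and the inverted repeat took 2.80% ± 1.47 and 1.74% ± 1.64. None of 7 such classes passed the threshold, with adjusted p of 0.267 or more, and none had an unadjusted exact p under 0.05. The smallest possible exact p is 0.0286, so a single class could not pass alone after adjustment over 7. By the unadjusted test, 3.7% of 27 other windows had a lower share of same-bin contacts, 44.4% a higher share of adjacent contacts and 44.4% a higher share at 2 to 5 kb.

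Among the contacts inside the locus, the link between the body bin and the 3′ bin stood out. It had 251, 249, 203 and 144 contacts in crosslinked replicates 1 to 4, against 151, 112, 48 and 46 in non-crosslinked replicates 1 to 4. In CPM of all contacts the groups did not overlap, with 488 ± 60.1 in crosslinked and 174 ± 50.5 in non-crosslinked libraries (SD, n = 4 each). The log2 fold change was 1.42 ± 0.18 (SE, edgeR adjusted p = 5.42e-05), and it was 1.08 in replicates 1 and 2 alone. Over all 381 pairs tested, 34.4% were higher and 27% lower, and among the 154 such pairs that join neighbouring bins 62.3% were higher and 8.44% lower. The pair ranked 10th by log2 among the 83 adjacent pairs of the large single copy region, whose median was 0.31. Its level was nonetheless near the bottom of those pairs, 82nd in crosslinked and 80th in non-crosslinked libraries. Its body bin lies wholly inside rbcL, and its 3′ bin also holds part of the gap before accD.

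The other adjacent pairs of the locus had several times more contacts and did not pass the threshold with all 8 libraries and TMM. The spacer bin with the body bin had 1099, 1231, 840 and 758 contacts in crosslinked replicates 1 to 4, against 1376, 997, 572 and 855 in non-crosslinked replicates 1 to 4. The groups overlapped after scaling, and the log2 fold change was 0.20 (edgeR adjusted p = 0.0931). The atpB bin with the spacer bin was at 0.25 (adjusted p = 0.0662), and the 3′ bin with the accD bin was at -0.15 (adjusted p = 0.278). These calls were open to the settings. Without TMM the links of the spacer bin with the body and atpB bins passed, at 0.32 (adjusted p = 0.0139) and 0.38 (adjusted p = 0.0123). Without non-crosslinked replicate 4 they also passed, at 0.26 (adjusted p = 0.0142) and 0.33 (adjusted p = 0.00664). The atpB link passed in replicates 1 and 2 alone too (0.24, adjusted p = 0.0437). The accD link passed without non-crosslinked replicate 2 (-0.29, adjusted p = 0.00611) and in replicates 3 and 4 alone (-0.37, adjusted p = 4.42e-05), but was at -0.0025 in replicates 1 and 2. The accD link was the 8th strongest adjacent pair of the region in crosslinked libraries and the 2nd strongest in non-crosslinked ones.

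**Figure D4:**
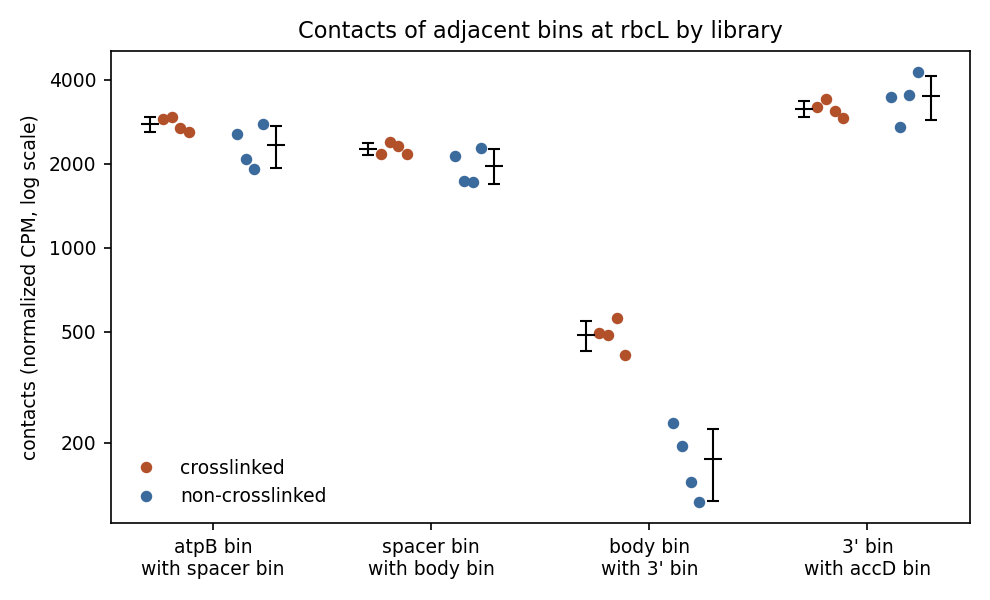
Contacts of each pair of adjacent bins at the rbcL locus by library, in TMM-normalized CPM of all contacts on a log scale. Points are libraries, crosslinked at the left and non-crosslinked at the right of each pair, and bars show the mean and SD of 4 libraries. The link of the body bin with the 3′ bin is the lowest in level and the only one of the 4 without overlap between the groups.

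Contacts within a single bin fell in the flanking bins. The log2 fold change was -0.33 ± 0.09 in the spacer bin (SE, edgeR adjusted p = 0.0106) and -0.28 ± 0.08 in the 3′ bin (adjusted p = 0.0128), against -0.09 in the body bin (adjusted p = 0.142), where replicates 1 and 2 alone gave -0.23 (adjusted p = 0.0313). The median of the large single copy region was -0.20, and 49.7% of all same-bin pairs were lower and 5.81% higher. The decrease of the 3′ bin missed the threshold without crosslinked replicate 3 (adjusted p = 0.0588) and without TMM scaling (adjusted p = 0.0684), and with no filter on low counts neither decrease passed, at larger log2 values of -0.83 (adjusted p = 0.186) in the spacer bin and -0.79 (adjusted p = 0.211) in the 3′ bin. The trnV bin and the body bin, a few kb apart, had 20, 14, 12 and 8 contacts in crosslinked replicates 1 to 4, against 5, 2, 0 and 0 in non-crosslinked replicates 1 to 4 (log2 2.15 ± 0.45, SE, edgeR adjusted p = 0.00173). This pair passed the filter on low counts only through the crosslinked libraries, where it was high, and it left the test without crosslinked replicate 1 or 2 and in replicates 3 and 4 alone, so no call is read from it. The spacer bin and the 3′ bin, which lie on either side of the gene body, had only 13, 7, 5 and 3 contacts in crosslinked replicates 1 to 4, against 10, 8, 0 and 2 in non-crosslinked replicates 1 to 4. This pair was too sparse to be tested, and so were all but 8 of the 462 rbcL pairs.

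Summed over all partners other than the bin itself, the body bin rose by 0.29 ± 0.08 (SE, edgeR adjusted p = 0.00221), with 4835 ± 79.9 CPM in crosslinked and 3936 ± 370 CPM in non-crosslinked libraries (SD, n = 4 each). The 3′ bin had a log2 fold change of -0.26 ± 0.09 (adjusted p = 0.0135) and the spacer bin of -0.09 (adjusted p = 0.520). Over all bins 22.6% were higher and 25.8% lower. The call in the 3′ bin was lost without crosslinked replicate 1 (adjusted p = 0.0586) or 3 (0.0579), without TMM scaling (-0.17, adjusted p = 0.117) and in replicates 1 and 2 alone (-0.10, adjusted p = 0.483).

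To resolve partners of the locus, bins were summed in 3-kb windows, of which the 3 rbcL bins form 1. With TMM scaling over 1322 tested window pairs, 17 of the 51 pairs with the rbcL window were lower in crosslinked libraries and 0 were higher, where 18.9% of all pairs were lower and 9.15% higher. No rbcL pair was higher at an unadjusted p under 0.05 either. Those lower were 10 of the 28 windows of the large single copy region, 1 of 17 in the repeat, all 5 in the small single copy region and the 1 window across the border of repeat and small single copy region. Shares of window pairs by partner region are not given here. In the long-range totals of all bins, 49.7% were lower and 7.74% higher with small single copy partners, so that direction was common on the map. With large single copy partners 34.2% were lower, and with repeat partners 11.6%. The direction of these counts depends on the scaling. Without TMM 1 rbcL pair was higher and 0 were lower, against 2.19% higher and 0.53% lower over all pairs. That pair was with the adjacent window (51001 to 54000, log2 0.39, edgeR adjusted p = 0.000633), not with a distant partner. The median of all window pairs moved to 0.68, against -0.15 with TMM, and that of the rbcL pairs to 0.43, against -0.39. DESeq2 called 0 rbcL pairs higher and 8 lower, against 135 higher and 97 lower of all 1322. A fit on pairs over 5 kb alone called 0 higher and 16 lower, against 16.5% and 19.1% of 1124 pairs. Replicates 1 and 2 alone gave 0 higher and 13 lower of 52, against 199 higher and 164 lower of 1375. Replicates 3 and 4 alone gave 2 higher and 4 lower of 24, against 106 higher and 126 lower of 594.

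The largest decrease by window was with 12001 to 15000, which holds atpF, atpH and atpI, subunit genes of the ATP synthase. This pair had 24, 17, 10 and 5 contacts in crosslinked replicates 1 to 4, against 82, 57, 4 and 7 in non-crosslinked replicates 1 to 4. In CPM the crosslinked libraries (13.6 to 22.2) lay below the non-crosslinked ones (39.5 to 73.7), and the log2 fold change was -1.75 ± 0.25 (SE, edgeR adjusted p = 1.39e-10). It was -1.63 in the fit on pairs over 5 kb, -1.66 in replicates 1 and 2 alone and -0.91 without TMM (adjusted p = 0.707). Among windows whose groups did not overlap, next came those of ndhF and rpl32 (-1.22), of ndhA and ndhH (-1.14) and of ndhH, rps15 and ycf1 (-1.10), all in the small single copy region, and that of trnC, petN, psbM and trnD (-1.08). Without TMM these 5 were at -0.91 to -0.22 and none passed, with adjusted p of 0.707 to 0.912.

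Once the long-range totals of both partners and their distance were accounted for, no named locus passed the test as a partner of rbcL. Contacts over expected, on a log2 scale, were compared for 16 loci by exact permutation tests. None passed the threshold (adjusted p of 0.823 or more) and none had an unadjusted p under 0.05. With 4 libraries per group the smallest possible exact p is 0.0286. After adjustment over 16 loci a single locus could therefore not pass alone, and only the unadjusted p could tell single loci apart. The genes of photosystem I, psaA and psaB, had 99, 48, 35 and 19 contacts with rbcL in crosslinked replicates 1 to 4, against 73, 52, 1 and 4 in non-crosslinked replicates 1 to 4. Their log2 observed over expected was 0.03 ± 0.178 in crosslinked libraries and -0.53 ± 0.566 in non-crosslinked ones (SD, n = 4 each), a difference of 0.56 (exact permutation p = 0.114) that was 0.11 in replicates 1 and 2. The clpP gene, which encodes a protease subunit, had -0.43 ± 0.368 and 0.11 ± 0.379, a difference of -0.54 (exact permutation p = 0.0857) that was -0.05 in replicates 1 and 2. The psbA end of the large single copy region, which encodes the D1 protein of photosystem II, had 0.26 ± 0.214 and -0.14 ± 0.342 (difference 0.40, exact permutation p = 0.171). That difference turned to -0.082 in replicates 1 and 2, and the sign in those replicates was the other way at 6 of the 16 loci.

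The other 13 loci differed by between -0.11 and 0.38. Toward the rRNA operon, a strongly transcribed part of the repeat, rbcL was at -0.04 ± 0.0382 in crosslinked and 0.01 ± 0.467 in non-crosslinked libraries (SD, n = 4 each). Toward the NDH genes of the small single copy region it was at 0.03 ± 0.157 and 0.09 ± 0.112. Non-crosslinked values had the wider SD at 14 of the 16 loci, all but atpI-atpH-atpF-atpA and the small single copy NDH genes, and some loci had few contacts there. The psaI-ycf4-cemA-petA locus had 29, 31, 0 and 5 contacts in non-crosslinked replicates 1 to 4, and differences below the spread of such values were not detectable at this depth.

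**Figure D5:**
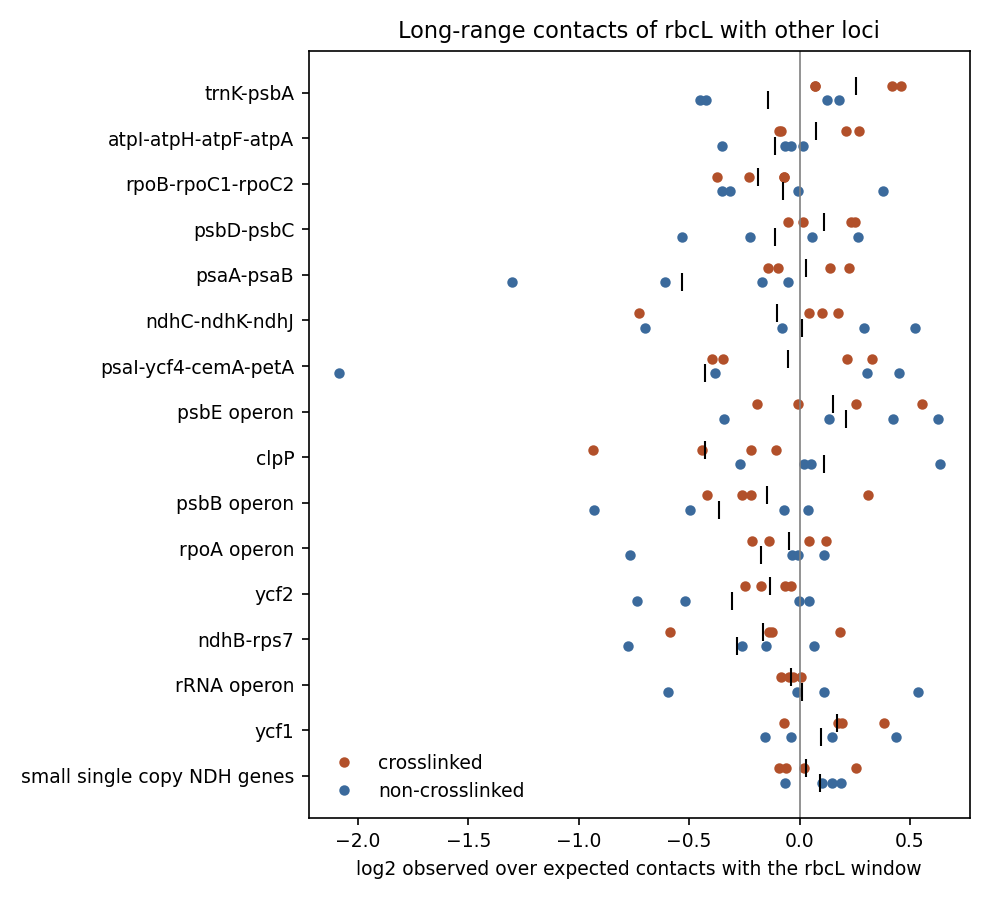
Log2 observed over expected long-range contacts between the 3 rbcL bins and 16 other loci. Points are libraries, crosslinked in the upper and non-crosslinked in the lower row of each locus, and vertical ticks mark the mean of 4 libraries. The groups overlap at every locus, and the lowest point is non-crosslinked, at -2.09 for psaI-ycf4-cemA-petA.

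The mean over the 3 rbcL bins was set against 3 other photosynthesis loci with much transcribed genes. This mean had fewer long-range contacts per bin in crosslinked libraries and more in non-crosslinked ones. Relative to psbA, log2 contacts per rbcL bin were -0.51, -0.50, -0.68 and -0.37 in crosslinked replicates 1 to 4, against 0.28, 0.20, 0.08 and 0.60 in non-crosslinked replicates 1 to 4. The difference was -0.80 (exact permutation test, two-sided p = 0.0286, the same after adjustment over 3 comparisons). This test and those below rest on the same long-range totals of the 3 rbcL bins as above, so they are not independent of those results. Other windows were not set against these loci, so no background share is given. Relative to psaA-psaB the mean was -0.14 ± 0.0830 in crosslinked and 0.70 ± 0.271 in non-crosslinked libraries, and relative to psbD-psbC, genes of photosystem II, it was -0.12 ± 0.0342 and 0.37 ± 0.291 (SD, n = 4 each). Both differences, -0.84 and -0.50, had the same exact permutation p of 0.0286. The one from psbD-psbC was lost without the spacer bin: with the body and 3′ bins alone it was -0.22 (adjusted exact permutation p = 0.0857), and with any 1 crosslinked library left out its adjusted p was 0.0571. In replicates 1 and 2 the 3 differences were -0.74, -0.58 and -0.30. The body bin alone went otherwise, with 902, 472, 296 and 205 long-range contacts in crosslinked replicates 1 to 4. Per bin, psaA-psaB had 776, 439, 270 and 166 there, and psbD-psbC had 778, 445, 254 and 167. In non-crosslinked replicates 1 to 4 the body bin had 673, 393, 23 and 40, against 603, 391, 23.4 and 40.6 for psaA-psaB. It was below psbD-psbC there, and below psbA in all libraries but crosslinked replicate 4.

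The bins over 5 kb away whose log2 long-range CPM followed the summed rbcL value most closely over the 8 libraries, out of 142, were those of clpP (70001 to 71000, Pearson r = 0.989), ndhA (0.980), ndhI and ndhA (0.978), atpH (0.973) and ccsA and ndhD (0.970). All 5 were lower in crosslinked libraries, by 0.72 (ndhI and ndhA) to 1.53 (atpH) on the log2 scale. That shared direction follows from how they were chosen, since the summed rbcL value was itself lower in crosslinked libraries. The points share the same 8 libraries and their scaling, and these values are given as a description.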

How the data were processed

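The authors deposited 1 table of raw contact counts for 12090 pairs of 1-kb bins on the TAIR10 plastid chromosome, with a column for each of 8 libraries. Per the submitters' processing notes, Trim Galore 0.4.1 and Juicer were used. Read filters, the restriction enzyme and the placing of reads from the inverted repeat are not given in the sources used here, so cut sites per bin were not analysed. Total counts per library were 351828 to 708524. Members and lists were chosen with earlier results of these data known.

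The repeat copies (27 bins each) were found from the counts, as anti-diagonal pairs with at least 1000 contacts. Tests over many pairs or bins used edgeR 4.0.16 in R 4.3.3 (quasi-likelihood, TMM, filterByExpr with a minimum count of 10, prior count of 2, Benjamini-Hochberg over the whole table, threshold 0.05). The SE is the log2 fold change divided by the root of the F statistic. Per-library measures used exact two-sided permutation tests over 70 assignments. Expected partner contacts were the library's mean at that distance times both bins' long-range totals, with a pseudocount of 0.5. Totals by partner region and by distance, and the body-to-flank contrast, were chosen after seeing the data. Named are the rbcL bins, 16 listed loci, up to 5 pairs or windows per direction with the largest change past the threshold and no overlap, and the 5 most similar bins. On simulated data with 2-fold changes, 100% of changed long-range totals were recovered (0% of calls false), 100% of bin totals (6.25%), 100% of totals by partner region (3.85%), 98.3% of contacts by distance (6.35%), 95% of 1-kb pairs (5%) and 55% of 3-kb window pairs (2.65%). All simulated libraries had the same composition apart from these changes, which were balanced in direction. The rates therefore do not cover the differences in long-range share between the real libraries. Alternatives were DESeq2 1.42.0, no TMM, no filter, a replicate block, single libraries left out and replicates 1 and 2 or 3 and 4 alone.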

Additional observations from a re-analysis of the deposited data

Results flagged for a closer look

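In 3 of 86 groups of 4 libraries checked, 1 library lay far from the other 3 by Dixon's test, where chance gives about 5%. The spacer bin's long-range total was 12991 CPM in non-crosslinked replicate 4. The log2 observed over expected contacts of rbcL with ndhC-ndhK-ndhJ were -0.73 in crosslinked replicate 2, and those with the rpoA operon were -0.77 in non-crosslinked replicate 4.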

How the results depend on the processing

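The opposite long-range changes of the body bin and its 2 flanks kept direction and threshold under each alternative tried: DESeq2, no TMM, a replicate block, a 10 kb minimum, single-copy bins only, replicates 1 and 2 or 3 and 4 alone, and single libraries left out. With single libraries left out they were 0.35 to 0.52 in the body bin, -1.01 to -0.89 in the spacer bin and -0.79 to -0.64 in the 3′ bin. The link of the body and 3′ bins ranged from 1.08 to 1.83 over the other alternatives. Counts were the values most open to the settings. The number of 1-kb rbcL pairs past the threshold was 4 of 8 tested, against 131 higher and 103 lower of all 381. It was 11 of 20 in replicates 1 and 2 alone, where 248 of all 661 pairs were higher and 206 lower. With single libraries left out it was 3 to 7. It was 7 of 11 without non-crosslinked replicate 4, where 162 of all 427 pairs were higher and 117 lower. Without crosslinked replicate 1 it was 3 of 7, where 112 of all 374 pairs were higher and 93 lower. The number of 3-kb window pairs was 17 of 51, all lower, but 8 with DESeq2, all lower. It was 1 without TMM, higher and with the adjacent window, and 6 of 24 in replicates 3 and 4, 2 higher and 4 lower. Without TMM, the total of the spacer bin turned to 0.0048, that of the 3′ bin was -0.17 and missed the threshold, and the same-bin contacts of the body bin turned to 0.030. The total of the 3′ bin was -0.10 in replicates 1 and 2 and -0.31 to -0.18 with single libraries left out. With no filter on low counts, the links of the spacer bin with the atpB bin and with the body bin turned to -0.23 and -0.27, while both passed the threshold as higher without TMM. The body bin with small single copy partners turned to 0.00056 with DESeq2 and to 0.21 in replicates 3 and 4. The cause was not tested in any of these cases.

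The shares of contact classes missed the threshold in each setting, and a single class could not have passed it alone. Among them, the difference in adjacent contacts turned to -4.53 points and that over 20 kb to -0.0398 when only contacts between different bins were counted. With single libraries left out, the class over 20 kb ranged from -0.261 to 1.05 and the small single copy class from -0.532 to 0.133. The small single copy class was -0.730 in replicates 1 and 2 and 0.270 in replicates 3 and 4. The difference in upstream share was 4.42 in replicates 1 and 2, 9.81 in replicates 3 and 4, and 2.58 without adjacent bins. In the same 2 pairs of replicates, rbcL against psaA-psaB was -0.58 and -1.09, rbcL against psbD-psbC was -0.30 and -0.69, and the body-to-flank contrast was 0.98 and 1.88. Against psbD-psbC, the body and 3′ bins alone gave -0.22.

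With any 1 crosslinked library left out, the adjusted exact permutation p was 0.0571 for the distance ratio, the upstream share and rbcL against psbD-psbC, where 35 assignments allow 0.0286, the value reached with any 1 non-crosslinked library left out. Over single libraries left out these differences were 1.58 to 1.91, 5.44 to 8.24 and -0.57 to -0.36. The distance ratio and the upstream share are adjusted together, so the adjusted p of each also depends on the other. Same-numbered libraries of the 2 groups had deviations from their group means that correlated by 0.666, 0.104, -0.022 and 0.330 over 1-kb pairs, and the labels do not say that a number marks a shared batch. Only replicate 1 matched its own number best. A replicate block in edgeR left 4 of the 8 tested 1-kb rbcL pairs and 16 of the 51 rbcL window pairs past the threshold, against 4 and 17 without it. Over the whole map the block gave 132 higher and 103 lower of 381 1-kb pairs. It gave 145 higher and 230 lower of 1322 window pairs. A block tested by exact sign flips cannot go below p = 0.125, and it reached that p for each of these differences: 1.79 for the distance ratio, 7.11 for the upstream share, -0.80, -0.84 and -0.50 for rbcL against psbA, psaA-psaB and psbD-psbC, and 1.43 for the body-to-flank contrast.

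No partner locus passed the threshold in any setting, which a single locus could not have done alone after adjustment over 16. Several changed sign, 6 of the 16 in replicates 1 and 2 alone (trnK-psbA, rpoB-rpoC1-rpoC2, psaI-ycf4-cemA-petA, the psbE operon, ycf2 and ndhB-rps7). With expected contacts from distance alone the difference was -0.66 for atpI-atpH-atpF-atpA, -0.085 for psbD-psbC, -0.057 for psaI-ycf4-cemA-petA, -0.71 for the rpoA operon, 0.16 for the rRNA operon and -0.40 for ycf1. With the body and 3′ bins alone it was -0.031 for the rpoA operon, -0.066 for ycf2 and -0.22 for ndhB-rps7. With single libraries left out it ranged from -0.20 to 0.039 for rpoB-rpoC1-rpoC2, -0.35 to 0.10 for ndhC-ndhK-ndhJ, -0.18 to 0.67 for psaI-ycf4-cemA-petA, -0.24 to 0.080 for the psbE operon, -0.070 to 0.22 for the rpoA operon, -0.051 to 0.25 for ndhB-rps7, -0.25 to 0.13 for the rRNA operon and -0.012 to 0.19 for ycf1. Non-crosslinked replicates 3 and 4 held 127 and 243 long-range rbcL contacts in all, which limits what could be detected at single loci.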
